A study of Mus musculus with 2 samples.

Results

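DNA replication genes were examined for Myb binding in a ChIP-Seq experiment on WT mouse bone marrow from which mature, lineage-marked blood cells had been depleted (Lin– cells), leaving a fraction rich in stem and progenitor cells (HSPCs). Of 43 named replication genes, 37 (86.0%) had at least 1 Myb peak with its summit within 3 kb of an annotated transcript start, against 39.9% of all 21938 protein-coding genes (8758 genes). The 37 genes held 58 such peaks, out of 14845 promoter peaks and 25793 Myb peaks in all. The 43 genes are a named list of the core replication machinery, and peaks were assigned to them by the position of the summit alone, with no threshold on fold enrichment or q-value beyond that of the deposited list.

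The experiment comprised 1 library precipitated with an antibody against Myb and 1 precipitated with nonspecific rabbit IgG, each from 1 μg of chromatin and 1.5 μg of antibody. The study's methods define WT as Ep300 fl/fl mice given poly(I:C) like the other genotypes, while the labels give the genotype of these cells as WT with no treatment or age, so whether these mice were injected is unknown here. Lin– cells had a purity above 80%. Neither the number of mice pooled nor the total depth of either library is given in the sources used here, and the member summits held 10 to 43 Myb reads. Because each antibody had a single library, no comparison below could be tested against the spread between mice and no p-value across genes is given. Under a rule wider than the one above, 8 of 8 progenitor markers had a Myb peak in or within 3 kb of the gene. These were Kit, Cd34, Gata2, Flt3, Meis1, Runx1, Spi1 and Myb itself. The same rule found a peak at 0 of 5 liver or neuron genes. No share of all protein-coding genes under this rule is given here, so these counts do not establish the cell type.

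A cell copies its genome once per division by licensing origins with the origin recognition complex (ORC), Cdc6, Cdt1 and the ring of Mcm proteins, and then by activating that ring with Cdc45 and the GINS complex. Primase and the replicative polymerases then synthesize DNA behind the helicase, held on the template by the clamp PCNA, while RPA covers single strands, Fen1 and Lig1 finish the lagging strand, and ribonucleotide reductase and thymidine enzymes supply nucleotides. The promoters of these genes are classical targets of E2F factors, which are active at the entry into S phase. Myb is a transcription factor of proliferating blood progenitors that binds short motifs built around the letters AAC, and it is known for sustaining their division.

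Myb reads at a summit were recovered as whole numbers from the deposited fold enrichment and p-value. The fold enrichment of each member's strongest peak is given with the 95% exact Poisson interval of those reads, with the IgG background held fixed. Most other peaks, and the genes of other lists, are given without a fold enrichment interval. These intervals cover counting error only. A peak lying between neighbouring genes cannot be assigned to either of them from its position.

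Some of the member peaks carrying the letters of a canonical Myb motif near the summit are shown first. Whether Myb bound these letters was not tested. The motif was searched as CAACTG or CAACGG or TAACTG or TAACGG on both strands within 50 bp of the summit. The sequences below are 30 bases of the mouse genome build GRCm38.p6 (the coordinates of mm10), 5′ to 3′ along the strand of the named gene, with the Myb motif in capitals. Orc5 lies at chr5:22550281-22550310 (minus strand), Orc2 at chr1:58505022-58505051 (minus strand), Cdc6 at chr11:98918337-98918366 (plus strand), Pcna at chr2:132247717-132247746 (minus strand) and Rpa3 at chr6:8259744-8259773 (minus strand).
Orc5: ctgaccggaggcCAACTGctctgcagtatc
Orc2: tatggcccgagtCAACGGgcttgcggcgcc
Cdc6: ggcctcaggaagTAACTGcaggcatgggtt
Pcna: tgcgagcgcgccTAACGGagaacggggagc
Rpa3: aagcaggcaggtCCGTTAcacaacgtctcc

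The motif sat 12 bp from the summit in Orc5, 16 bp in Orc2, 6 bp in Cdc6, 11 bp in Pcna and 33 bp in Rpa3. The Rpa3 peak had a q-value above 0.05 (−log10 q of 1.19). The Orc5 and Orc2 motifs lay near a start of the named gene, at summits 3 bp upstream of it and 57 bp past it. The Orc2 motif fell outside the promoter sequence searched for motifs below. The Cdc6 motif lay in an intron beside an internal start, and the Pcna and Rpa3 motifs lay nearer the start of another gene, as described with those genes below. The strongest peaks of Gins1 and Gins4 also held a motif, which made 7 of the 37 strongest peaks (18.9%) and 7 of all 58 member peaks (12.1%). The share over all promoter peaks was 14.7%. That share was taken without choosing the strongest peak per gene, so it is a background for the 12.1% and not for the 18.9%. Windows 500 bp to either side of the summits held the motif in 15.5% of cases at member peaks. The share in such windows was 13.5% at the strongest member peaks and 10.2% at all promoter peaks.

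Peaks were found throughout the replication machinery, but not evenly between its parts. All 9 origin licensing genes had a promoter peak, as did 11 of 12 helicase genes (91.7%), 2 of 2 genes of flap removal and ligation and 4 of 4 nucleotide supply genes. The clamp, clamp loader and RPA genes followed with 7 of 9 (77.8%), and the polymerase and primase genes had the lowest share, 4 of 7 (57.1%). At a stricter threshold, −log10 q of at least 5, the background was 24.3% of protein-coding genes and 21 of 43 members (48.8%) remained. The classes then held 6 of 9 origin licensing genes, 6 of 12 helicase genes, 4 of 9 clamp, loader and RPA genes, 2 of 7 polymerase and primase genes, 2 of 4 nucleotide supply genes and 1 of 2 genes of flap removal and ligation. With classes of 2 to 12 genes in 1 library, the differences between classes were not tested.

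**Figure D1:**
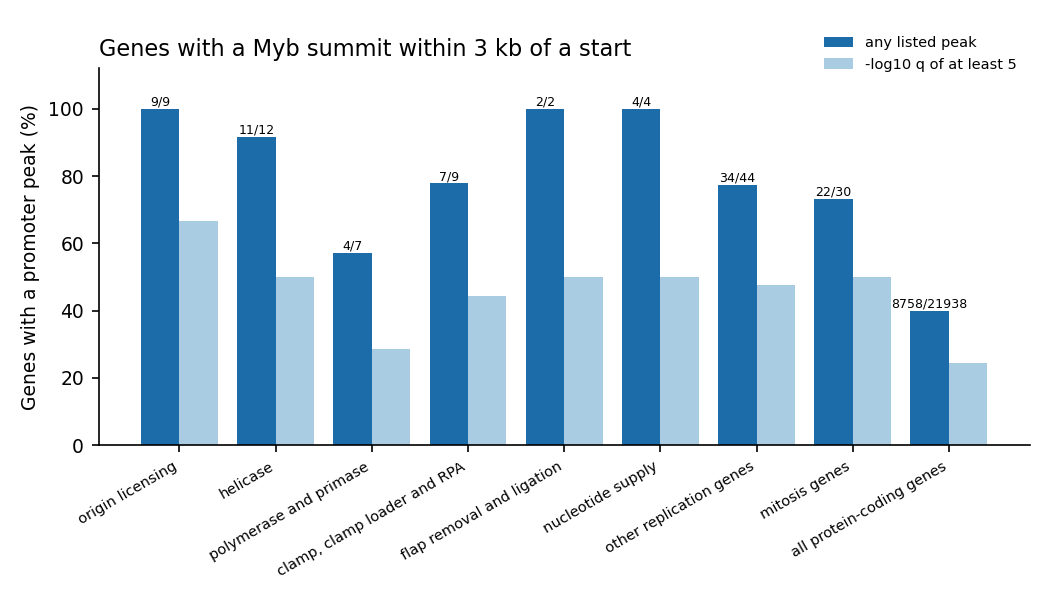
Share of genes, in percent, with a Myb summit within 3 kb of an annotated start, for each class of replication genes, for other replication genes, for mitosis genes and for all protein-coding genes. Dark bars count any listed peak and light bars peaks with −log10 q of at least 5, and the numbers above the dark bars give genes with a peak out of genes in the class. Origin licensing stood at 9 of 9, the polymerases and primase at 4 of 7, and all protein-coding genes at 39.9%.

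The peaks at replication genes were common but of ordinary strength. The strongest peak per gene had a median fold enrichment over IgG of 4.81 in the 37 members, with a range of 2.34 to 8.16, against a median of 5.25 over the 8758 protein-coding genes with a peak. Class medians of the strongest peak were 4.81 for origin licensing, 4.44 for the helicase, 5.31 for the polymerases and primase, 5.13 for the clamp, loader and RPA genes, 5.58 for Fen1 and Lig1 and 4.57 for nucleotide supply. In 10 of the 37 members the strongest peak lay more than 1 kb from any protein-coding start of the gene. Among these were Pola2, Pold1 and Prim2, so the class medians are not values at the main promoter alone. No member peak reached a fold enrichment of 10 (0 of 58, which allows a share of up to 5.17%), against 638 of all promoter peaks (4.30%), so a lack of strong peaks was not detectable with 58 of them. Taken over all 58 member peaks, the median was 4.58 with 20.0 Myb reads at the summit, and over all promoter peaks 4.54 with 19.0 reads. Member peaks were wider, with a median of 793 bp against 620 bp, and lay on a higher IgG background, 2.63 against 2.13 scaled reads. The part of width and background in these values was not tested.

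**Figure D2:**
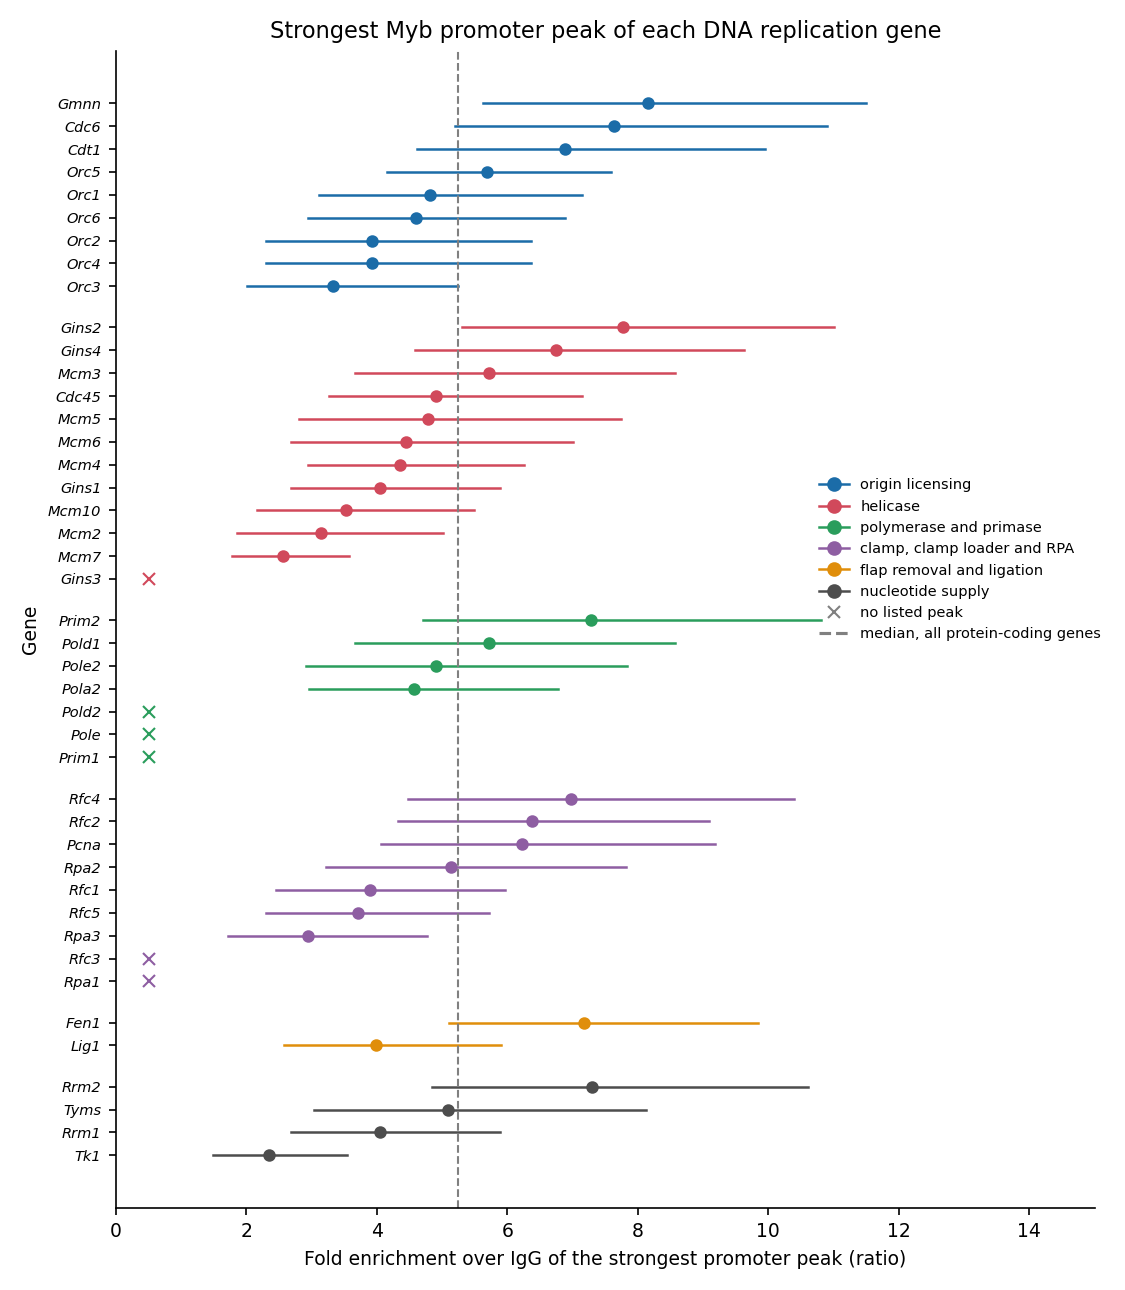
Fold enrichment over IgG (x axis, ratio) of the strongest promoter peak of each replication gene (y axis), grouped by class and ordered within it, with the exact 95% Poisson interval of the Myb reads as a line. Crosses mark the 6 genes with no listed promoter peak and the dashed line the median of 5.25 over protein-coding genes. Gmnn, Gins2 and Cdc6 stood highest, Tk1 and Mcm7 lowest, and most intervals overlapped.

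Most of the order among members was within counting error. Of 666 pairs of members, 40 had intervals that did not overlap, and none of the 36 neighbours in the order did. The separation came from the ends of the order. The interval of Gmnn (5.62 to 11.5) lay above those of 6 other members, and the intervals of Mcm7 and Tk1 each lay below those of 14.

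Among the origin licensing genes, the highest values were at Gmnn, Cdc6 and Cdt1, regulators of Mcm loading. Their intervals overlapped those of the ORC genes, except that the interval of Gmnn lay above that of Orc3. The Cdc6 value came from an intronic peak, and the peak at its promoter was weaker. Gmnn, which encodes geminin, the inhibitor that keeps Cdt1 from relicensing origins, had 30 Myb reads at a summit 89 bp past its start (chr13:24761028-24762078), a fold enrichment of 8.16 (5.62 to 11.5). Cdt1, the loading factor that geminin restrains, had 26 reads 102 bp past its start (chr8:122567012-122568393), a fold enrichment of 6.89 (4.62 to 9.95). The inhibitor and its target thus both carried a peak inside the start of the gene, with overlapping intervals.

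Cdc6, the ATPase that joins ORC and Cdt1 in loading the Mcm ring, held 5 peaks. The strongest, with 28 reads and a fold enrichment of 7.64 (5.19 to 10.9), was intronic at chr11:98917450-98918887, near an internal start and 10194 bp from a protein-coding start of Cdc6, while Rara was the nearest gene with a protein-coding start, at 9473 bp. The peak 171 bp upstream of a Cdc6 start (chr11:98907255-98907980) was weaker, with 18 reads and a fold enrichment of 3.44 (2.13 to 5.30). The other 3 had fold enrichments of 4.82, 4.19 and 3.52 at 2902 bp upstream, 621 bp downstream and 1569 bp downstream of a start. Peaks at Cdc6 were therefore spread over the locus rather than placed at the promoter alone.

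Every one of the ORC subunits, which mark origins on chromatin, had exactly 1 promoter peak. Orc5 had the most Myb reads of any member, 43 (31.1 to 57.9), at 3 bp upstream of a start (chr5:22549113-22551146), and a fold enrichment of 5.68 (4.16 to 7.59). Orc1 followed with 4.81 from 22 reads (3.11 to 7.14) and Orc6 with 4.60 from 21 reads (2.95 to 6.89). Orc2 and Orc4 had the same fold enrichment of 3.92 from 14 reads each (2.30 to 6.36), and Orc3 had the lowest, 3.33 from 16 reads (2.01 to 5.25). All 6 intervals overlapped. The high read count at Orc5 stood on an IgG background of 5.0 scaled reads, against 2.0 at Orc2 and Orc4.

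Fold enrichments at the helicase genes ranged from 2.56 at Mcm7 to 7.77 at Gins2. The GINS complex, which locks Cdc45 onto the Mcm ring, had peaks at 3 of 4 subunit genes. Gins2 had 29 reads at 106 bp past its start (chr8:120588813-120589851) with a fold enrichment of 7.77 (5.31 to 11), and Gins4 had 28 reads at 142 bp (chr8:23237110-23238126) with 6.75 (4.59 to 9.62). Gins1 had 25 reads at 115 bp on a higher background of 4.0 scaled reads, with 4.05 (2.69 to 5.88). Gins3 had no promoter peak, and the nearest summit lay 82265 bp from any of its starts. The complex was thus split between a gene near the top of the order and one with no listed peak.

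All 6 genes of the Mcm ring, Mcm2 to Mcm7, had a promoter peak. Mcm3 had the highest fold enrichment among them, 5.72 from 21 reads (3.67 to 8.57), at 12 bp upstream of a start (chr1:20819833-20820620). Mcm6 had 4.44 from 16 reads (2.68 to 7.0) at 56 bp past its start, with a second, weaker peak of 2.97 in an intron at 1194 bp. Mcm4 had 4.36 from 27 reads (2.94 to 6.25) at 642 bp upstream, where the start of Prkdc was nearer (153 bp). Mcm2 had 3.14 from 15 reads (1.86 to 5.01). The intervals of these 4 genes overlapped. At Mcm5 the strongest peak, 4.78 from 14 reads (2.80 to 7.74), was intronic and 9988 bp from a protein-coding start. The peak 306 bp upstream of the Mcm5 start had more reads (25) but a lower fold enrichment, 3.37 (2.24 to 4.90), with an IgG background of 5.0 scaled reads.

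Mcm7 showed how far fold enrichment and read number could part. Its summit, 86 bp upstream of a start (chr5:138170631-138172420), had 32 Myb reads, a number exceeded among the strongest peaks only by Orc5 (43) and Fen1 (36). The local IgG background there was 9.0 scaled reads, the highest of any member, and the fold enrichment was 2.56 (1.78 to 3.58), above only that of Tk1. Of the remaining helicase genes, Cdc45, which joins the Mcm ring and GINS in the active helicase, had 4.91 from 25 reads (3.26 to 7.14) at 266 bp upstream, and Mcm10, which acts in firing the loaded ring, had 3.52 from 17 reads (2.16 to 5.49). The Cdc45 summit lay 41 bp from the start of its divergent neighbour Ufd1.

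**Figure D3:**
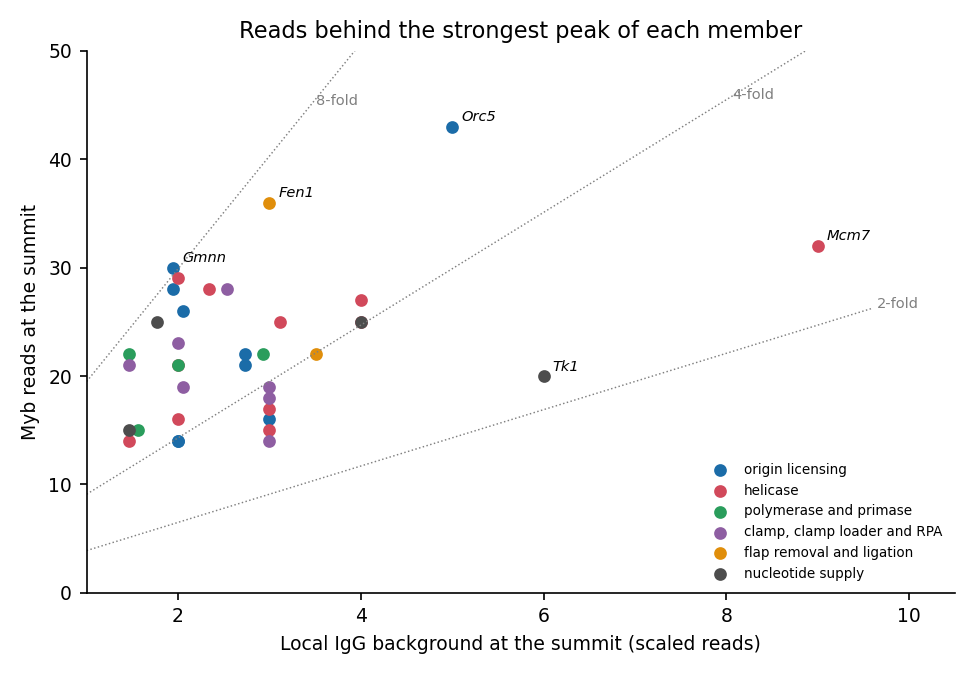
Myb reads at the summit (y axis) against the local IgG background in scaled reads (x axis) for the strongest peak of each of the 37 members, coloured by class, with dotted lines of equal fold enrichment. Mcm7 and Tk1 lay far to the right, with backgrounds of 9.0 and 6.0, and Orc5 had the most Myb reads (43).

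The polymerase and primase genes had the lowest share of genes with a peak. Pole2, an accessory subunit of polymerase epsilon, had 15 reads at 139 bp past its start with a fold enrichment of 4.90 (2.91 to 7.83), whereas Pole, its catalytic subunit, had no promoter peak, with the nearest summit 55289 bp away. Pold1, the catalytic subunit of polymerase delta, had peaks of 5.72 from 21 reads (3.67 to 8.57) in a coding exon far inside the gene and of 5.46 from 20 reads (3.47 to 8.26) at 14 bp past its protein-coding start. The exon peak lay 14068 bp from a protein-coding Pold1 start, while that of Spib was nearest, at 2594 bp. Pold2, the small subunit of polymerase delta, had no promoter peak, with the nearest summit 35675 bp away. Subunits of the same polymerase therefore differed in whether a peak was listed.

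The primase pair showed the same split. Prim2, the large primase subunit, had 4 peaks, the strongest with 22 reads and a fold enrichment of 7.28 (4.71 to 10.8) at 2631 bp upstream (chr1:33672128-33672805). A further intronic peak, 5.39 from 18 reads, lay 44872 bp from a protein-coding start. Those nearest to that start were weaker, 3.84 from 11 reads at 516 bp past it and 3.12 from 19 reads at 719 bp upstream. Prim1, the catalytic subunit, had no promoter peak, although a summit lay 9044 bp from a start with a fold enrichment of 4.01 from 30 reads. Pola2, the B subunit of polymerase alpha, had 4.57 from 22 reads (2.96 to 6.78) at 1077 bp upstream and 2.73 from 20 reads at 198 bp past a start.

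Pcna, the sliding clamp, held 5 peaks, as many as Cdc6. The strongest, 6.23 from 23 reads (4.07 to 9.18) at chr2:132246641-132248698, lay 27 bp from the start of Tmem230 and 5572 bp from a protein-coding start of Pcna. Another peak, 6.21 from 31 reads (4.30 to 8.71), lay 151 bp past a Pcna start (chr2:132252440-132254330). The other 3 had fold enrichments of 3.99 to 4.94. Both the neighbouring promoter and that of Pcna itself thus carried a peak.

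The loader that opens the clamp, replication factor C, had peaks at 4 of 5 subunit genes. Rfc4 had 3, of which the one at its promoter, 203 bp upstream, had 31 reads and a fold enrichment of 6.03 (4.18 to 8.46), and a coding exon near the other end of the gene had 6.97 from 21 reads (4.47 to 10.4). This exon peak lay 13517 bp from a protein-coding Rfc4 start, while that of Eif4a2 was nearest, at 6382 bp. Rfc2 had 6.38 from 28 reads (4.33 to 9.09) in a coding exon 10548 bp from its protein-coding start and 4.72 from 18 reads in an intron 2087 bp from it. Rfc1, the large subunit, had 3.90 from 19 reads (2.45 to 5.96) at 300 bp past a start, and Rfc5 had 3.71 from 18 reads (2.30 to 5.72) at 45 bp. Rfc3 had no promoter peak, with the nearest summit 275855 bp away.

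RPA, the heterotrimer that coats single-stranded DNA, ranged from a clear peak to none. Rpa2 had 5.13 from 19 reads (3.22 to 7.82) at 341 bp upstream. Rpa3 had 2.94 from 14 reads (1.72 to 4.77) at 552 bp upstream, 295 bp from the start of Umad1, and its q-value was above 0.05 (−log10 q of 1.19). Rpa1, the largest subunit, had no promoter peak, with the nearest summit 27976 bp from a start.

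Fen1, the nuclease that trims flaps of Okazaki fragments, had more reads at its strongest peak than any member but Orc5, with 36 at 259 bp upstream (chr19:10202713-10204951) and a fold enrichment of 7.18 (5.10 to 9.84). Lig1, the ligase that seals the trimmed fragments, had 3.98 from 22 reads (2.57 to 5.90), but at an internal start 22775 bp from a protein-coding one. No listed summit lay within 3 kb of a protein-coding Lig1 start, and Lig1 left the count when starts of protein-coding transcripts alone were used.

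The nucleotide supply genes ranged from 7.29 at Rrm2 to 2.34 at Tk1. Rrm2, the small subunit of ribonucleotide reductase, had 25 reads at 203 bp upstream (chr12:24707034-24709090) with a fold enrichment of 7.29 (4.85 to 10.6), and a second peak of 3.28 in an intron. Tyms, thymidylate synthase, had 5.09 from 15 reads (3.03 to 8.13) at 100 bp upstream. Rrm1, the large reductase subunit, had 4.05 from 25 reads (2.69 to 5.88) at 45 bp upstream of a start. Weaker Rrm1 peaks were 3.71 from 12 reads, 20332 bp from a protein-coding start of the gene, and 3.30 from 10 reads. The peak of 3.30 had a q-value above 0.05 (−log10 q of 1.19). Tk1, thymidine kinase, had the lowest value of all members, 2.34 from 20 reads (1.49 to 3.54) at 736 bp past a start, with a background of 6.0 scaled reads and a q-value above 0.05 (−log10 q of 0.985). The intervals of Rrm2 and Tk1 did not overlap.

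The summits clustered close to starts, as promoter peaks did in general. The median distance from summit to start was 283 bp over the 58 member peaks and 384 bp over all promoter peaks, and 56.9% against 55.4% lay within 500 bp. With that narrower window 31 of 43 members (72.1%) had a peak, against 31.8% of protein-coding genes. Of the 58 peaks, 17 lay in the noncoding part of an exon, 16 in an intron, 15 upstream, 8 in a coding exon and 2 downstream of the gene. A summit lay within 1 kb of a protein-coding start in 34 members (79.1%), against 34.7% of all protein-coding genes (7603 genes). In 9 members (Cdc6, Lig1, Mcm5, Pcna, Pold1, Prim2, Rfc2, Rfc4 and Rrm1), 11 peaks lay beyond 3 kb of a protein-coding start of the gene and were assigned through internal starts of other transcripts.

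**Figure D4:**
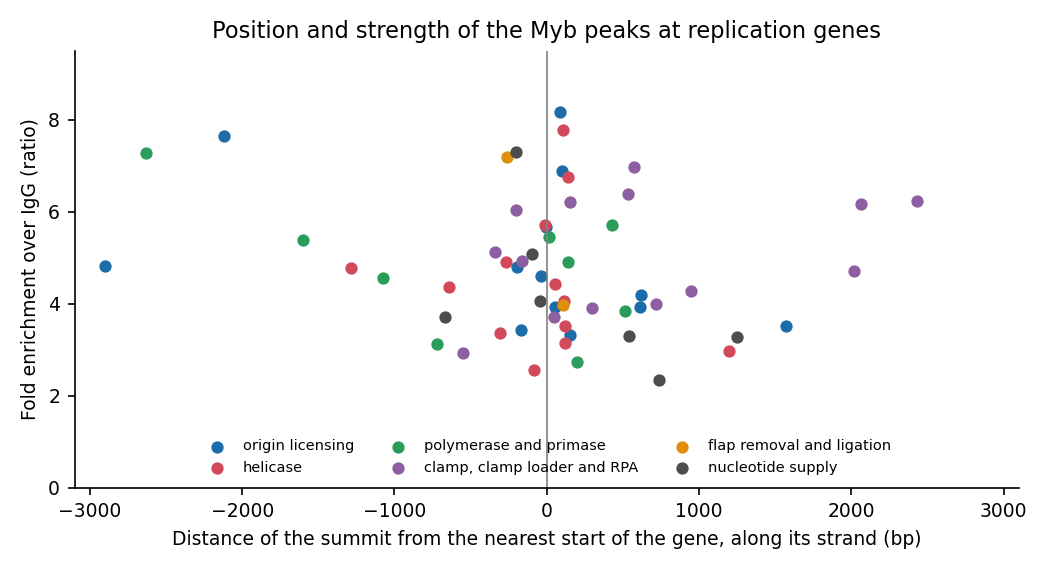
Signed distance of each of the 58 member summits from the nearest annotated start of its gene along the gene's strand (x axis, bp, negative upstream) against fold enrichment over IgG (y axis, ratio), coloured by class. Of the summits, 33 (56.9%) lay within 500 bp of the start, and both strong and weak peaks occurred there.

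Replication genes often shared their promoter region with another gene. In 13 of 43 members (30.2%) the start lay within 1 kb of a protein-coding start in the opposite direction, against 11.4% of protein-coding genes. The neighbours were Prpf38a (Orc1), Rars2 (Orc3), Mbd5 (Orc4), Vps35 (Orc6), Prkdc (Mcm4), Ap4m1 (Mcm7), Ufd1 (Cdc45), Pxmp2 (Pole), Smyd4 (Rpa1), Umad1 (Rpa3), Tmem258 (Fen1), Zswim9 (Lig1) and Afmid (Tk1). Of these 13 members 11 had a peak, which in 10 (all but Lig1) was also within 3 kb of a start of the neighbour, and in 5 (Orc1, Mcm4, Cdc45, Rpa3 and Tk1) the summit was nearer the neighbour. Protein-coding genes with such a partner had a peak in 76.1% of cases (1896 of 2493) and those without in 35.3% (6862 of 19445). The 30 members without a partner had a peak in 26 cases (86.7%). The part of shared promoters in the members' share was not tested. Over all 58 member peaks, 14 had a gene outside the module as the nearest protein-coding start.

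The share of genes with a peak was also taken among genes with particular promoter features. A promoter sequence was matched in the RefSeq table (GRCm38.p6) for 35 of 43 members, all but Mcm4, Gins1, Gins2, Gins4, Gmnn, Pole, Prim2 and Rfc2. Of these 35, 30 had a peak (85.7%), against 41.7% of the 16522 protein-coding genes with one. CpG-rich promoters, with a GC content of at least 50% and an observed-to-expected CpG ratio of at least 0.6, were bound in 63.9% of cases (5011 of 7839), and the CpG-rich members in 19 of 23 (82.6%). Genes with at least 4 annotated start sites were bound in 58.2% of cases, and such members in 33 of 38 (86.8%). With both properties the background rose to 69.9% and the members stood at 18 of 21 (85.7%). These restricted sets overlap, and the backgrounds were chosen after the data were seen. The part of CpG content and of the number of start sites in the members' share was not tested.

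Of 6 motifs searched in the promoters, E2F letters gave the largest ratio between replication genes and all genes, while the share with Myb letters was close to the background. The E2F motif was searched as TTTCCCGC, TTTCGCGC, TTTGCCGC or TTTGGCGC on both strands, from 250 bases before to 50 after the RefSeq start, and overlapping matches were counted separately. It occurred in 12 of 35 member promoters (34.3%), against 2.93% of 16522 promoters and 5.03% of the CpG-rich ones. More than 1 match occurred in 5 member promoters (14.3%), against 0.133% of all. The Myb motif occurred in 9 of 35 (25.7%), against 26.2% of all promoters.

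The E2F matches fell in 4 origin licensing genes (Orc1, Orc3, Cdc6 and Cdt1), 5 helicase genes (Mcm3, Mcm5, Mcm6, Mcm7 and Gins3), the polymerase subunits Pold1 and Pole2, and Rfc3. All 5 promoters with more than 1 match were those of Mcm3, Mcm5, Mcm6, Mcm7 and Rfc3. Sites of 8 genes from these classes are shown because E2F letters gave this contrast, as 30 bases along the strand of the gene with each whole E2F match in capitals, from RefSeq (GRCm38.p6). Orc1 lies at chr4:108579416-108579445 (plus strand), Cdc6 at chr11:98908002-98908031 (plus strand), Cdt1 at chr8:122568035-122568064 (plus strand), Mcm3 at chr1:20820263-20820292 (minus strand), Mcm7 at chr5:138172030-138172059 (minus strand), Gins3 at chr8:95633507-95633536 (plus strand), Pole2 at chr12:69228162-69228191 (minus strand) and Rfc3 at chr5:151651200-151651229 (minus strand).
Orc1: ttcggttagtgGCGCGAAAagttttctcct
Cdc6: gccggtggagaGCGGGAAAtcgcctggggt
Cdt1: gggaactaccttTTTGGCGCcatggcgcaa
Mcm3: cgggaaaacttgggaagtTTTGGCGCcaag
Mcm7: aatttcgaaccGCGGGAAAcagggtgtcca
Gins3: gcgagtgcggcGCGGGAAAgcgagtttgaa
Pole2: cgtcggcggtgGCGCCAAAtcgcgaacatg
Rfc3: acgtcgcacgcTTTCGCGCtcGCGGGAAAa

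Mcm5 and Mcm6 each held a pair of overlapping E2F matches on opposite strands, with CCAAT letters between the pair and the start, and are therefore shown as the whole 250 bases before the RefSeq start, along the strand of the gene, with E2F and CCAAT letters (either strand) in capitals. Mcm5 lies at chr8:75109259-75109508 (plus strand) and Mcm6 at chr1:128359706-128359955 (minus strand).
Mcm5: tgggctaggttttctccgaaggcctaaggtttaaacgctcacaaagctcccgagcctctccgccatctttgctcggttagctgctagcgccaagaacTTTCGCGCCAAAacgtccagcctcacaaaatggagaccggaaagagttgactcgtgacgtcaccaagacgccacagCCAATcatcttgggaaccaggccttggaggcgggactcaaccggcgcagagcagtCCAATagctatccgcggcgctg
Mcm6: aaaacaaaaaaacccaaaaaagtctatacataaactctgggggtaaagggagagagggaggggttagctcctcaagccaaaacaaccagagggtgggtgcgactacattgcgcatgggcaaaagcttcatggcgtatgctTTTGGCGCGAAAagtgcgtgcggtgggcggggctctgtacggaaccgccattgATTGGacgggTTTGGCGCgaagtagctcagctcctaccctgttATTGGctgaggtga

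In Mcm5 the matches began 153 and 149 bases before the RefSeq start, and in Mcm6 110, 106 and 47 bases before it. The Myb summits lay 306 bp upstream of a Mcm5 start (chr8:75109263) and 56 bp past a Mcm6 start (chr1:128359591). The summit distances are from GENCODE starts, which differ from the RefSeq starts of these genes. They are therefore not on the same scale as the E2F positions. At the summits themselves E2F letters were found within 50 bp in 2 of 58 member peaks (3.45%), those of Mcm3 and Rpa2, against 0.829% of all promoter peaks. Gins3 and Rfc3 held E2F letters in the promoter but had no listed promoter peak.

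Other promoter letters gave smaller contrasts. CCAAT occurred in 21 of 35 member promoters (60.0%) against 38.7% of all, the ETS motif CCGGAA in 16 (45.7%) against 19.6%, and the SP motif GGGCGG in 25 (71.4%) against 48%. Among CpG-rich promoters the shares were 37.2% for CCAAT, 31.5% for ETS and 76.9% for SP, the last above the members' share. The CHR letters TTTGAA, known from genes expressed late in the cell cycle, occurred in 4 member promoters (11.4%), below the 15.6% of all promoters and above the 8.80% of CpG-rich ones.

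**Figure D5:**
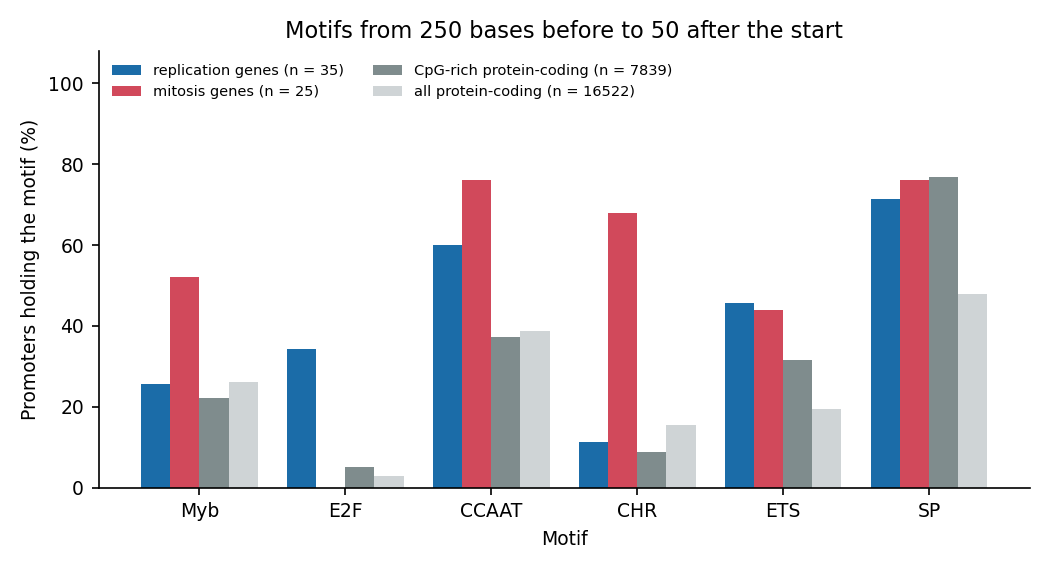
Percentage of promoters (y axis) holding each motif (x axis) from 250 bases before to 50 after the start, for 35 replication genes, 25 mitosis genes, 7839 CpG-rich protein-coding genes and 16522 protein-coding genes. E2F letters stood at 34.3% in replication genes and at 0 in mitosis genes, while CHR and Myb letters stood at 68.0% and 52.0% in mitosis genes.

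Genes of mitosis, the later part of the cell cycle, were set beside the replication genes. Of 30 mitosis genes, 22 (73.3%) had a promoter peak, with a median fold enrichment of the strongest peak of 5.25. Of 25 mitosis promoters with a sequence, 17 held CHR letters (68.0%), 13 held the Myb motif (52.0%) and 0 held E2F letters, which allows a share of up to 12.0%. CCAAT (76.0%), ETS (44.0%) and SP letters (76.0%) were nearer to their shares in the members (60.0%, 45.7% and 71.4%), and the differences between the lists were not tested. The highest peaks among them, at Kif20a (a kinesin of cytokinesis, fold enrichment 19.7 from 109 reads), Cdc20 (the activator of the anaphase-promoting complex, 7.90 from 49 reads) and Cenpa (the centromeric histone, 7.65 from 29 reads), are given beside the maximum of 8.16 among the 43 members, at Gmnn.

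The wider replication pathway, 44 further genes, had a peak in 34 cases (77.3%) with a median strongest fold enrichment of 5.13. All 4 genes of Okazaki fragment processing, 4 of 4 of chromatin assembly at forks and 3 of 3 topoisomerases had one, as did 5 of 7 origin firing genes, 4 of 5 fork protection genes, 7 of 10 further nucleotide supply genes, 3 of 5 further polymerase subunits, 2 of 4 genes of alternative clamp loaders and 2 of 2 further Mcm genes. The 3 with the highest fold enrichment were Dtymk, the thymidylate kinase that follows Tyms and Tk1 in making dTTP (11.3 from 45 reads), and Asf1a, a histone chaperone, and Mcm9, a relative of the Mcm ring (both 9.32 from 29 reads at the same summit). The Dtymk value was above those of the 4 nucleotide supply members, of which Rrm2 was highest at 7.29 (4.85 to 10.6). Dtymk was named as the highest of the 44 genes, and no fold enrichment interval is given for it. Whether it differed from Rrm2 beyond counting error was therefore not tested. The alternative clamp loaders and the further polymerase subunits had the lowest shares among these steps.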

How the data were processed

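ChIP-Seq was performed with 1 Myb library and 1 IgG library from Lin– bone marrow. The authors used cutadapt 1.15 for trimming, BWA 0.7.13 for alignment to mm10, Picard for removing duplicates and MACS2 2.1.1.20160309 for narrow peaks over IgG. The deposited peak list gives a fold enrichment (a ratio over IgG at the summit, with a pseudocount of 1), −log10 p, −log10 q and a score, which the authors' caller sets to 10 times −log10 p with a cap of 1000 (6 peaks). The study's methods state a threshold of q below 0.05 on calls from pseudo-replicates, but 6.99% of promoter peaks in the deposited list have a q-value above 0.05, so a listed peak need not pass it.

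Here whole Myb reads and the local IgG background at each summit were solved from fold enrichment and −log10 p (100% of peaks within a tolerance of 0.005, with 0.7695 scaled reads per Myb read). Intervals are exact Poisson at 95%, the limit for a count of 0 is 3 counts, and duplicates were removed by position without molecular identifiers. Summits were assigned to GENCODE vM21 starts within 3 kb. Read recovery, assignment and motif search were tested on simulated data. Every member is named, with its strongest peak, plus the 3 highest genes of each other list and each divergent neighbour within 1 kb. Members and lists were chosen with earlier results of these data known. The list of mature lineage markers is not reported here. Chtf8 has more than 1 GENCODE entry, and the first was used. Alternatives were thresholds on q, windows of 1 kb and 500 bp, protein-coding starts, peak overlap and motif windows. Python 3.11.15, numpy 2.4.6, pandas 2.3.3, scipy 1.17.1, pysam 0.24.0 and matplotlib 3.10.9 were used.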

Additional observations from a re-analysis of the deposited data

How the results depend on the processing

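The number of members with a promoter peak fell from 37 to 21 at −log10 q of at least 5, and was 34 at −log10 q of at least 2, 35 at a q-value of at most 0.05, 37 with a window of 1 kb, 31 with 500 bp, 36 with protein-coding starts only and 37 with overlap of the peak and the window by any base. An alternative added after the data were seen, a summit within 1 kb of a protein-coding start, gave 34. The share of protein-coding genes moved from 39.9% to 37.0% at −log10 q of at least 2, 24.3% at 5 or more, 38.4% at a q-value of at most 0.05, 35.8% with 1 kb, 31.8% with 500 bp and 38.7% with protein-coding starts only, so the members' share stayed above the background under each of these. The share of member peaks with a Myb motif at the summit rose from 12.1% to 44.8% with the shorter motif AACNG, against 51.1% of all promoter peaks. With windows of 25 bp and 100 bp it was 6.90% and 20.7%, against 7.83% and 26.9%, and among peaks at −log10 q of at least 5 it was 18.5% against 16.7%. The median strongest fold enrichment stayed between 4.44 and 6.23. With protein-coding starts only, added after the data were seen, it was 4.76 in members and 5.21 over protein-coding genes. E2F letters from 1000 bases before to 500 after the start occurred in 45.7% of members against 8.82%. No paired analysis was possible because each antibody had 1 library, so leaving out a library was not possible either. The 6 members with no listed peak are not shown to lack binding at this depth, and a member summit rested on as few as 10 reads.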

Other observations

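Beyond 3 kb, 19 further Myb peaks lay 3 to 50 kb from a member that held the nearest protein-coding start, at 12 members, with fold enrichments of 2.56 to 8.62 and a median of 4.48. Tk1, which had the weakest promoter peak, had the highest of these, 8.62 from 37 reads at 3401 bp upstream (chr11:117828194-117831049), and another of 5.12 from 32 reads at 6212 bp. The divergent neighbour Afmid starts 118 bp from Tk1 and had 3 peaks within 3 kb of its own starts, 1 of them shared with Tk1. The upstream peaks therefore cannot be assigned to either gene from their position. Cdc6 had a peak of 8.01 from 29 reads in an intron 3625 bp from its start, in addition to its 5 promoter peaks. Prim2 had 3 intronic peaks of 4.95 to 6.51, 38365 to 42300 bp from a protein-coding start.

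Of the 6 members with no promoter peak, Rpa1 had an intronic peak of 5.55 from 27 reads, 34098 bp from its protein-coding start. Gins2, the helicase gene with the highest promoter value, had 2 peaks downstream of the gene, of 6.29 from 26 reads and 3.98 from 19 reads. Whether any of these distal peaks acts on the member nearest to it was not tested.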
